A study of Mus musculus with 8 samples.

Results

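Neurexins, neuroligins and leucine-rich repeat transmembrane neuronal proteins (LRRTMs) were examined in hippocampal RNA of male C57BL/6 mice after repeated ketamine anesthesia. The 9 genes followed were the neurexins Nrxn2 and Nrxn3, the neuroligins Nlgn1, Nlgn2 and Nlgn3, and Lrrtm1, Lrrtm2, Lrrtm3 and Lrrtm4. They were chosen by name as trans-synaptic adhesion genes, with earlier results of these data known, out of 20802 genes in the deposited table. All 9 passed the filter on low values, a mean of at least 10 normalized counts, which left 18865 genes.

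Each group held 4 mice, with a library per mouse. The Anesthesia group received ketamine (35 mg per kg, i.p.) once a day for 5 days from PND16 to PND20. By the treatment protocol the Control group was handled alike and given saline, whereas its samples are titled as untreated. Mice of both groups were weaned at PND21, and the hippocampus was taken at PND28 by the labels, about 1 week after the last injection. The comparison addressed whether early ketamine anesthesia leaves a difference in hippocampal gene expression. No later drug exposure is given for these mice.

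Neurexins are adhesion molecules of the presynaptic membrane. Across the synaptic cleft they bind neuroligins and LRRTMs, and these partners gather receptors and scaffolds on the postsynaptic side. Neuroligin-1 is found mainly at glutamatergic synapses, neuroligin-2 mainly at GABAergic synapses, and neuroligin-3 at both, whereas LRRTMs act at glutamatergic synapses. In the hippocampus these families take part in the formation of synapses and in synaptic plasticity.

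The values are normalized counts, that is, the estimated reads of a gene divided by a size factor of the library. The values of a library summed to 18702634 to 19231119, and the step between low values placed the depth at approximately 15400000 to 22100000 reads. Markers of hippocampal neurons were present in every mouse, with none of 10 genes at 0, and they summed to 34831 to 52579.6 normalized counts in Anesthesia and 37558 to 45100.0 in Control mice. Anesthesia mouse 3 was lowest of the 8 mice for 6 of these 10 genes, whereas Anesthesia mouse 2 was highest for 6. Choroid plexus markers, which belong to tissue next to the hippocampus, ranged from 4551 to 86786 over the Anesthesia mice and from 4314 to 103623 over the Control mice, with none of 12 genes at 0 and each of the 12 lower on average in the Anesthesia group. Nuclear-retained RNAs summed to 365510 to 415807 in Anesthesia and 339644 to 363145 in Control mice, without overlap. In bulk tissue, fewer cells of a type and less RNA per cell cannot be told apart.

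No neurexin, neuroligin or LRRTM gene differed between the groups past an adjusted p of 0.05. Limma with a mean-variance trend on log2(normalized count + 1) gave adjusted p-values from 0.622 to 0.993 for the 9 genes, and the percentage called at 0.05 was 0% over all 18865 genes. The paper did report differentially expressed genes at this threshold with DESeq2, a count test that was not run here. At an unadjusted p under 0.05, limma called 1 of the 9, Nrxn2, where it called 8.02% of all genes. With limma voom, 0 of the 9 had an unadjusted p under 0.05. The groups overlapped for all 9 genes, whereas 5.04% of all genes did not overlap, 2.81% being higher and 2.23% lower in the Anesthesia group. The mean was higher in the Anesthesia group on the log2 scale for 7 of the 9 genes, against 49.2% of all genes, and the median log2 fold change was 0.047 for the 9 and -0.0036 for all genes. This tally was not stable across settings. After the GC content and length correction 4 of the 9 were higher, with a median of -0.0099. With upper quartile scaling 8 were higher, and without Anesthesia mouse 2 it was 5. With the level of nuclear-retained RNAs as a covariate 4 were higher, with a median of -0.034. This covariate was added after the data were seen. As the sums of these RNAs did not overlap between the groups, they cannot be told apart from the treatment. Every fold change below is the Anesthesia mean minus the Control mean on the log2(normalized count + 1) scale.

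**Figure D1:**
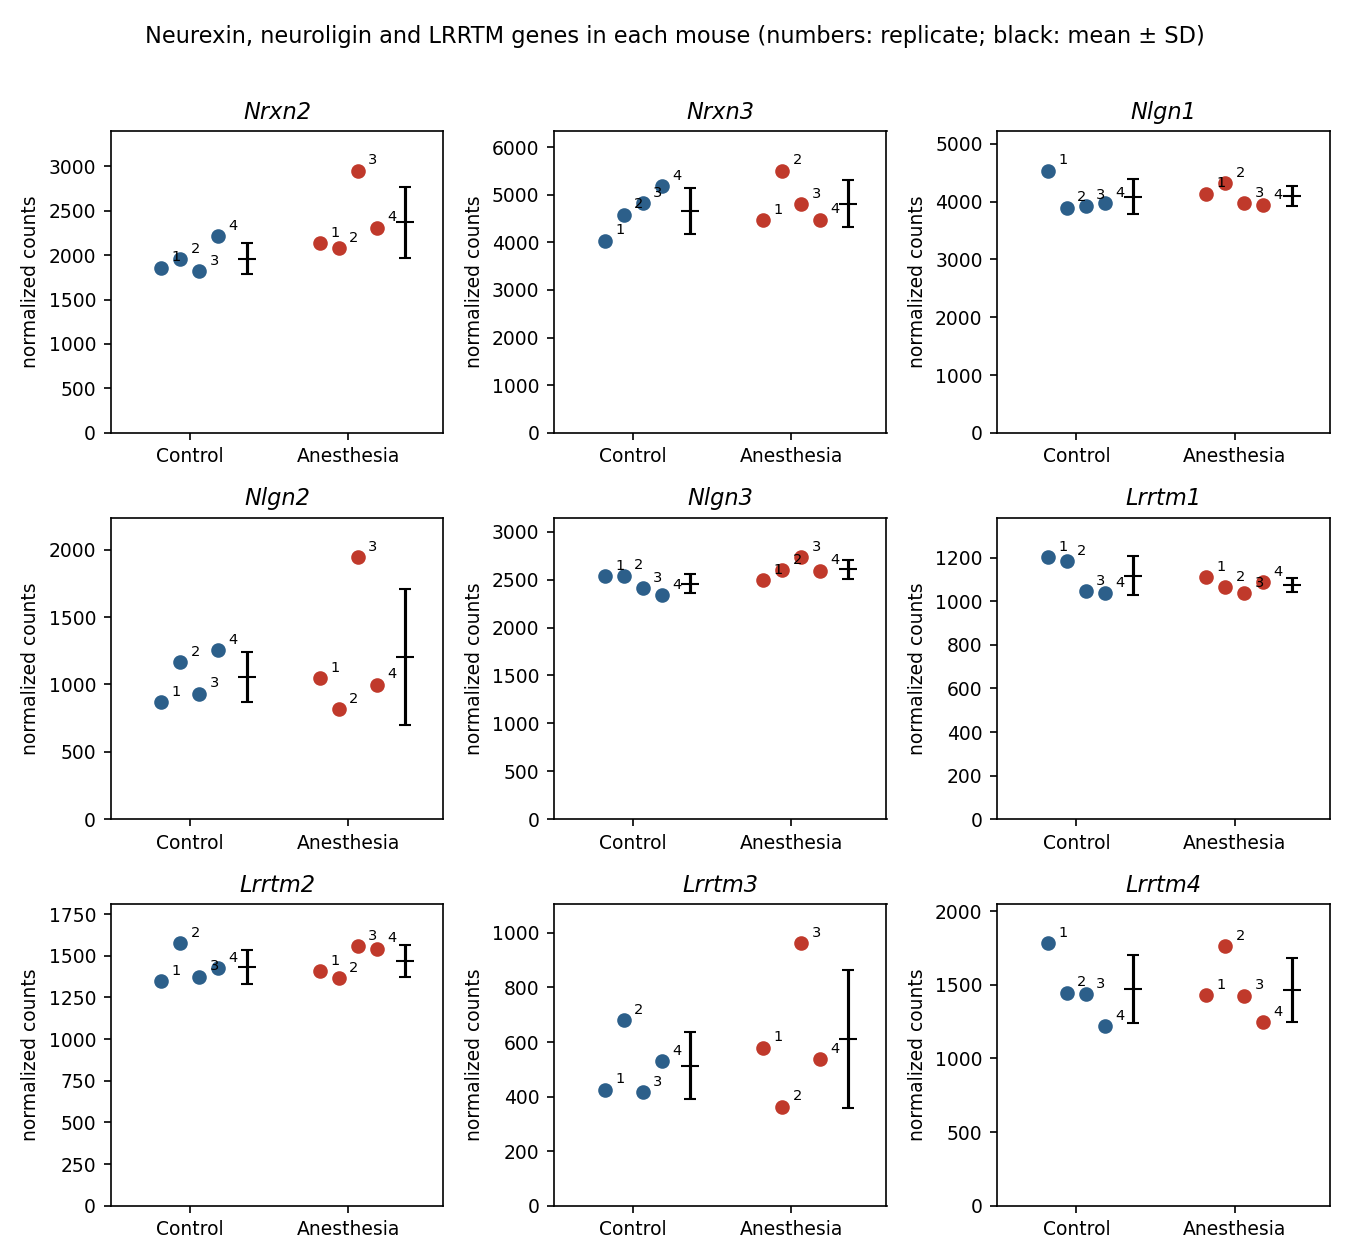
Normalized counts (y axis, starting at 0) of the 9 genes in each mouse of the Control (blue) and Anesthesia (red) groups, with replicate numbers beside the points and the mean ± SD of 4 mice as a black bar. The groups overlap in each panel, and Anesthesia mouse 3 stands above the other 7 mice for Nrxn2, Nlgn2, Nlgn3 and Lrrtm3.

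Expressed per kilobase of the longest annotated transcript, Nrxn3 had the highest level, with a median of 592 normalized counts per kb over the 8 mice and a range of 509.8 to 695.0. This range lay above that of Lrrtm1, the next gene, which was 350.1 to 406.5 with a median of 364. The order went on with Nlgn1 at a median of 337, Lrrtm4 at 323, Nrxn2 at 316 and Nlgn3 at 297 normalized counts per kb. Lrrtm2 had a median of 249.7, Nlgn2 of 184 and Lrrtm3, the lowest, of 137. From Lrrtm1 downwards, the ranges of neighbours in this order overlapped, so only the place of Nrxn3 was set apart from its neighbour. These levels depend on the transcript chosen for the length, since neurexin and neuroligin genes give rise to transcripts of very different lengths.

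Nrxn2 (ENSMUSG00000033768) lies on the plus strand at chr19:6418731-6544169 of GRCm38. It encodes long alpha and short beta forms from separate promoters, which were counted together here. Normalized counts were 2138, 2076, 2950.0 and 2309.8 in Anesthesia mice 1 to 4 and 1859, 1956, 1817 and 2211 in Control mice 1 to 4. Anesthesia mice 3 and 4 were above the highest Control mouse, whereas mice 1 and 2 lay within the Control range. The means were 2368 ± 400.3 and 1961 ± 177 (SD, n = 4). The log2 fold change was 0.26 (SE 0.11, 95% interval 0.02 to 0.50) with a limma adjusted p of 0.622, and Nrxn2 ranked 1105 of 18865 genes by p.

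The difference in Nrxn2 was smaller under several settings and larger under others. With single mice left out, its log2 fold change ran from 0.15 to 0.32. Without Anesthesia mouse 3 the log2 fold change was 0.15 (SE 0.08), and with each library corrected for the GC content and length of transcripts it was 0.064 (SE 0.077). The longest Nrxn2 transcript has a GC content of 62.4%, the highest of the 9 genes. The fifth of genes with the highest GC content was set against the fifth with the lowest, by median log2 deviations from the mean of all mice. The difference was 0.024, 0.0098, 0.057 and 0.043 in Anesthesia mice 1 to 4. In Control mice 1 to 4 it was -0.078, -0.055, -0.045 and 0.018. This tilt largely followed the groups, so it and the treatment cannot be fully told apart, and its part was not tested. With the mean level of nuclear-retained RNAs as a covariate, the log2 fold change of Nrxn2 was -0.06 (SE 0.12). The summed counts of those RNAs did not overlap between the groups, so this sum and the treatment cannot be told apart. Singly, 1 of the 8 RNAs was without overlap, higher in the Anesthesia group, as were 2.81% of all genes. The covariate was the mean of their log2 values, and its part in the difference was not tested.

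The genes most like Nrxn2 across the 8 mice were Ptprm, Nat8l and Adap1. The root mean square difference of their log2 deviations from those of Nrxn2 was 0.039, 0.050 and 0.053. Ptprm encodes a receptor-type tyrosine phosphatase of cell contacts, and its means were 867 ± 142 and 708 ± 68.2 normalized counts (SD, n = 4), with an adjusted p of 0.620 in limma. Nat8l, which makes N-acetylaspartate in neurons, had means of 2971 ± 391 and 2497 ± 208 (adjusted p = 0.620, limma). For all of these genes the highest value was in Anesthesia mouse 3, as for Nrxn2, which follows largely from their choice by likeness over the same mice.

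Nrxn3 (ENSMUSG00000066392, plus strand, chr12:88722876-90334935), a second neurexin with alpha and beta forms, had a smaller log2 fold change than Nrxn2, although the genes were not tested against each other. Normalized counts were 4459, 5506, 4801 and 4475 in the Anesthesia mice and 4039, 4582, 4830.4 and 5186 in the Control mice. The highest value was in Anesthesia mouse 2 and the lowest in Control mouse 1. The means were 4810.3 ± 489.7 and 4659 ± 482.5 (SD, n = 4), with a log2 fold change of 0.047 (SE 0.090, 95% interval -0.15 to 0.25) and an adjusted p of 0.897 in limma. The log2 ratio of Nrxn3 to Nrxn2 within a mouse averaged 1.03 ± 0.29 in Anesthesia and 1.25 ± 0.12 in Control mice (SD, n = 4), and it was lowest, 0.70, in Anesthesia mouse 3.

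Among the neuroligins, Nlgn1 (ENSMUSG00000063887, minus strand, chr3:25426215-26332460) was nearly equal in the groups. Normalized counts were 4138, 4315, 3977 and 3939 in the Anesthesia mice. They were 4536, 3895, 3932 and 3976 in the Control mice, of which mouse 1 was the highest of all 8. The means were 4092 ± 172 and 4085 ± 302.8 (SD, n = 4), and the log2 fold change was 0.0046 (SE 0.063, 95% interval -0.13 to 0.14, limma adjusted p = 0.989). Without Control mouse 1 it was 0.056 (SE 0.057). Of its exon bases, 9.16% are shared with A830092H15Rik on the opposite strand, which had 7.09 to 18.2 normalized counts. The interval leaves room for a difference of about 0.14 on the log2 scale in either direction.

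Nlgn2 (ENSMUSG00000051790, minus strand, chr11:69823122-69837784), the neuroligin of GABAergic synapses, varied most among the neuroligins. Normalized counts were 1048, 818, 1945 and 998 in the Anesthesia mice and 867, 1165, 932 and 1257 in the Control mice. Anesthesia mouse 3 held 1.95 times the median of the other 7 mice, whereas Anesthesia mouse 2 was the lowest. The means were 1202 ± 505.2 and 1055 ± 185 (SD, n = 4), and without mouse 3 the Anesthesia mean was 954 ± 121. The log2 fold change was 0.12 (SE 0.23, 95% interval -0.39 to 0.64, limma adjusted p = 0.895), and without mouse 3 it turned to -0.14 (SE 0.14). The within-group SD of Nlgn2 on the log2 scale was 0.42, above that of 98.9% of the 4549 genes whose level lay within 2-fold of its own.

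Nlgn3 (ENSMUSG00000031302, plus strand, chrX:101299168-101325963) varied least of the 9 genes, with a within-group SD of 0.056 on the log2 scale. Normalized counts were 2497, 2599, 2736 and 2595 in the Anesthesia mice and 2535, 2541, 2415 and 2336 in the Control mice. In the Anesthesia group, 3 of 4 mice were above the highest Control mouse, and mouse 1 was within the Control range. The means were 2607 ± 98.1 and 2457 ± 99.5 (SD, n = 4), and the log2 fold change was 0.086 (SE 0.055, 95% interval -0.035 to 0.21, limma adjusted p = 0.694). With the GC content and length correction it was -0.0099 (SE 0.050). The value of Nlgn3 is uncertain because 41.2% of its exon bases, 3823 in number, are shared with Gm21986, a gene on the same strand with 16.4 to 40.1 normalized counts.

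The log2 ratio of Nlgn1 to Nlgn2, the neuroligins of glutamatergic and GABAergic synapses, averaged 1.85 ± 0.58 in Anesthesia and 1.97 ± 0.33 in Control mice (SD, n = 4). It was lowest, 1.03, in Anesthesia mouse 3, and highest in Anesthesia mouse 2 at 2.40 and Control mouse 1 at 2.39. The spread within the Anesthesia group was thus larger than the difference between the groups. The summed GABAergic interneuron markers were 9260, 8299.5, 9369.7 and 9731 in Anesthesia mice 1 to 4, and 9565 to 10103 over the Control mice. Anesthesia mice 1, 2 and 3 were thus each below the lowest Control mouse, so this was not particular to mouse 3. Of these 8 markers, 3 were highest and 1 lowest in Anesthesia mouse 3. Pan-neuronal markers were highest in Anesthesia mouse 3 for 4 of 6 genes, and nuclear-retained RNAs for 5 of 8. The part of these in the result was not tested.

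Lrrtm1 (ENSMUSG00000060780, plus strand, chr6:77242689-77257791) was lower in the Anesthesia group within the spread. Like Lrrtm2 and Lrrtm3, it lies within an alpha-catenin gene on the opposite strand. Normalized counts were 1109, 1064, 1036 and 1087 in the Anesthesia mice and 1202, 1184, 1046 and 1037 in the Control mice. Control mice 1 and 2 were the highest, and the other 2 Control mice lay close to the lowest Anesthesia mouse. The means were 1074 ± 31.4 and 1117 ± 88.0 (SD, n = 4), with a log2 fold change of -0.054 (SE 0.069, 95% interval -0.21 to 0.099, limma adjusted p = 0.834). Lrrtm1 was the only one of the 9 genes whose direction was the same in every alternative fit run, although its size ran from -0.089 to -0.018 with single mice left out, the smallest being without Control mouse 1.

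Lrrtm2 (ENSMUSG00000071862, minus strand, chr18:35209003-35215024), a high-affinity neurexin ligand, had normalized counts of 1406, 1366, 1556 and 1544 in the Anesthesia mice. In the Control mice they were 1350.5, 1575, 1376 and 1427, so that the lowest and the highest value were both in this group. The means were 1468 ± 96.1 and 1432 ± 100.3 (SD, n = 4), and the log2 fold change was 0.036 (SE 0.071, 95% interval -0.12 to 0.19, limma adjusted p = 0.899). With single mice left out it ran from 0.0074 to 0.083, the smallest being without Anesthesia mouse 3. Of its exon bases, 1.58% are shared with Ctnna1 on the opposite strand.

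Lrrtm3 (ENSMUSG00000042846, minus strand, chr10:63928472-64090277) varied across mice more than any other of the 9. Normalized counts were 579.9, 363, 961 and 538 in the Anesthesia mice and 425, 679.7, 416 and 529 in the Control mice. As with Nlgn2, the highest value was in Anesthesia mouse 3, at 1.82 times the median of the other 7 mice, and the lowest in Anesthesia mouse 2. The means were 611 ± 252 and 513 ± 123 (SD, n = 4), and the log2 fold change was 0.19 (SE 0.26, 95% interval -0.38 to 0.77, limma adjusted p = 0.840). Without Anesthesia mouse 3 it was -0.054 (SE 0.20), and without Anesthesia mouse 2 it was 0.41. The within-group SD of 0.47 on the log2 scale was above that of 98.3% of the 5285 genes of like level.

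The promoters of Nlgn2 and Lrrtm3 are shown because these genes had the same highest and the same lowest mouse while their sequences differ in composition. The 250 bases before the RefSeq start (GRCm38.p6) are given 5′ to 3′ on the strand of the gene, at chr11:69837785-69838034 and chr10:64090256-64090505, both minus. Capitals mark GGGCGG, the core of the GC box bound by Sp-family factors, which was searched on both strands, as CCGCCC on the other.
Nlgn2: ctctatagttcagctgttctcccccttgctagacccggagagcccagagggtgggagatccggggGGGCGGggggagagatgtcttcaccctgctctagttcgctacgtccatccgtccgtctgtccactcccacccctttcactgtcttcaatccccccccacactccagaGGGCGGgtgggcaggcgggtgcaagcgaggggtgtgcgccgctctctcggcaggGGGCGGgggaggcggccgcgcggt
Lrrtm3: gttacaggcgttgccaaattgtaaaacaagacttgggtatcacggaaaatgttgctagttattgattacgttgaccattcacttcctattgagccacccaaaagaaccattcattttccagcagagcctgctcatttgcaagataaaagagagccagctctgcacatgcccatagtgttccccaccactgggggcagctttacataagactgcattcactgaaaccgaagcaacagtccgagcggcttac

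The Nlgn2 promoter held 3 matches to GGGCGG and 18 CpG dinucleotides, with a GC content of 67.6%. The Lrrtm3 promoter held 0 matches and 6 CpG dinucleotides, with a GC content of 46%. Over 32851 mouse promoters of this length, 32.7% held a match to GGGCGG, and the median number of CpG dinucleotides was 6. Neither promoter held TATAAA on either strand, a match present in 12.4% of all promoters. Neither held CCAAT on either strand, a match present in 33.8%. No match to GGGCGG overlapped another motif. RefSeq promoters were matched for 6 of the 9 genes, and a match of letters is a description only.

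Lrrtm4 (ENSMUSG00000052581, plus strand, chr6:80018877-80810143), known for its high expression in dentate granule cells, did not differ between the groups beyond its spread. Normalized counts were 1428, 1761, 1427 and 1245 in the Anesthesia mice and 1781, 1447, 1437 and 1222 in the Control mice. Anesthesia mouse 2 and Control mouse 1 were the highest of their groups, although neither was among the values flagged below as far from those of the group mates. The means were 1465 ± 215 and 1472 ± 231 (SD, n = 4), and the log2 fold change was -0.0043 (SE 0.12, 95% interval -0.28 to 0.27, limma adjusted p = 0.993). Of its exon bases, 1543, or 25.1%, are shared with Gm4409 on the opposite strand, which was not analysed here, so that its value is uncertain if reads were counted without strand.

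The same 2 mice were highest for markers of dentate granule cells, a comparison made after the values were seen. Prox1, a transcription factor of these cells, had 2397 normalized counts in Anesthesia mouse 2 and 2205 in Control mouse 1, and 957 to 1675 in the other 6 mice. Dsp, which encodes desmoplakin, had 2453 and 1928 in these mice, and 713 to 1295 in the others. C1ql2, a secreted protein of mossy fiber synapses that binds neurexin, had 593 and 599, and 241 to 424 in the others. Prox1 and Dsp were lowest in Anesthesia mouse 3, where Lrrtm4 was not low. The part of the share of dentate granule cells in the level of Lrrtm4 was not tested.

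**Figure D2:**
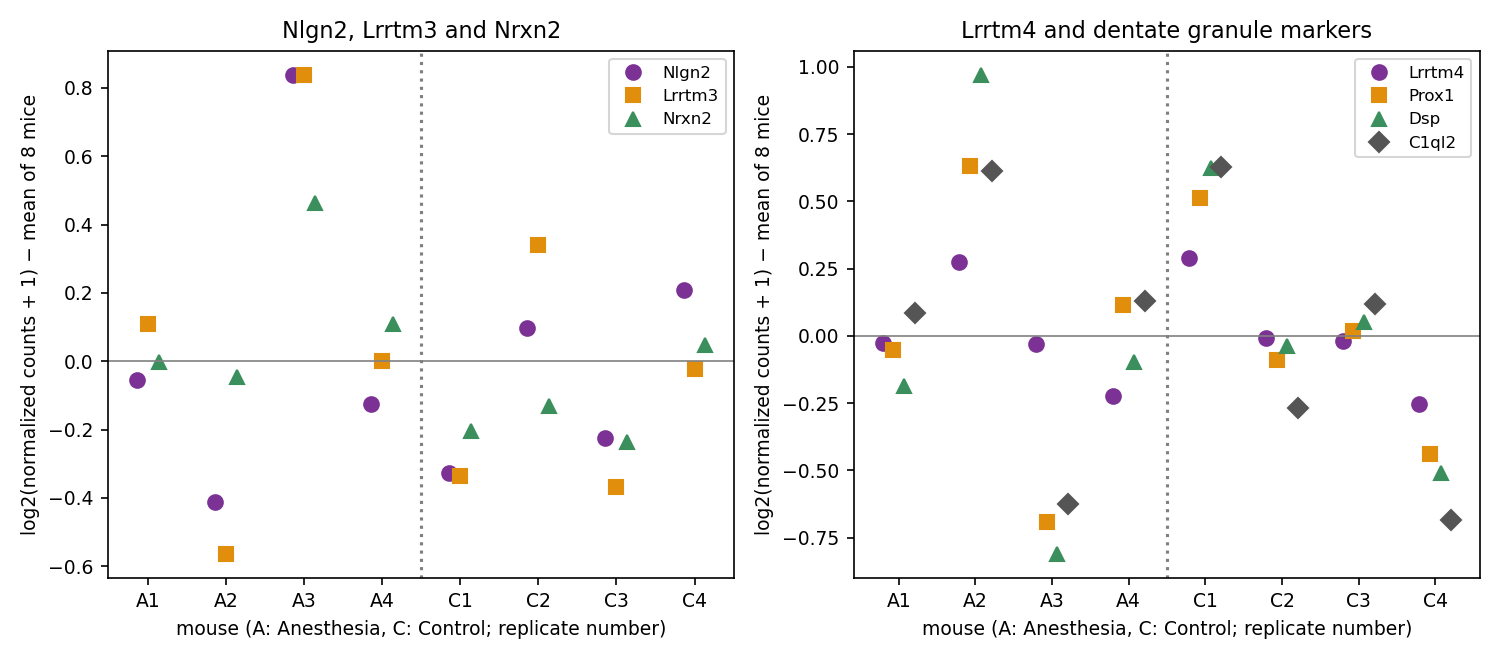
Deviation of each mouse from the mean of 8 mice on the log2(normalized count + 1) scale (y axis) for the mice of the Anesthesia (A) and Control (C) groups (x axis). On the left, Nlgn2, Lrrtm3 and Nrxn2 are highest in A3. On the right, Lrrtm4 and the dentate granule markers Prox1, Dsp and C1ql2 are high in A2 and C1.

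The log2 ratio of Lrrtm4 to Lrrtm3 within a mouse averaged 1.34 ± 0.71 in Anesthesia and 1.54 ± 0.47 in Control mice (SD, n = 4). It ran from 0.57 in Anesthesia mouse 3 to 2.28 in Anesthesia mouse 2, which spanned all Control values. The sum of the 9 genes varied less, from 18731 to 21390.4 over the Anesthesia mice, with the highest in mouse 3, and from 18202 to 19181 over the Control mice. An Anesthesia mouse was the highest of the 8 for 5 of the 9 genes, near the 54.6% of all genes, and mouse 3 was for 4 of the 9, against 20.3% of all genes. Anesthesia mouse 1 and Anesthesia mouse 4 were neither highest nor lowest for any of the 9.

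**Figure D3:**
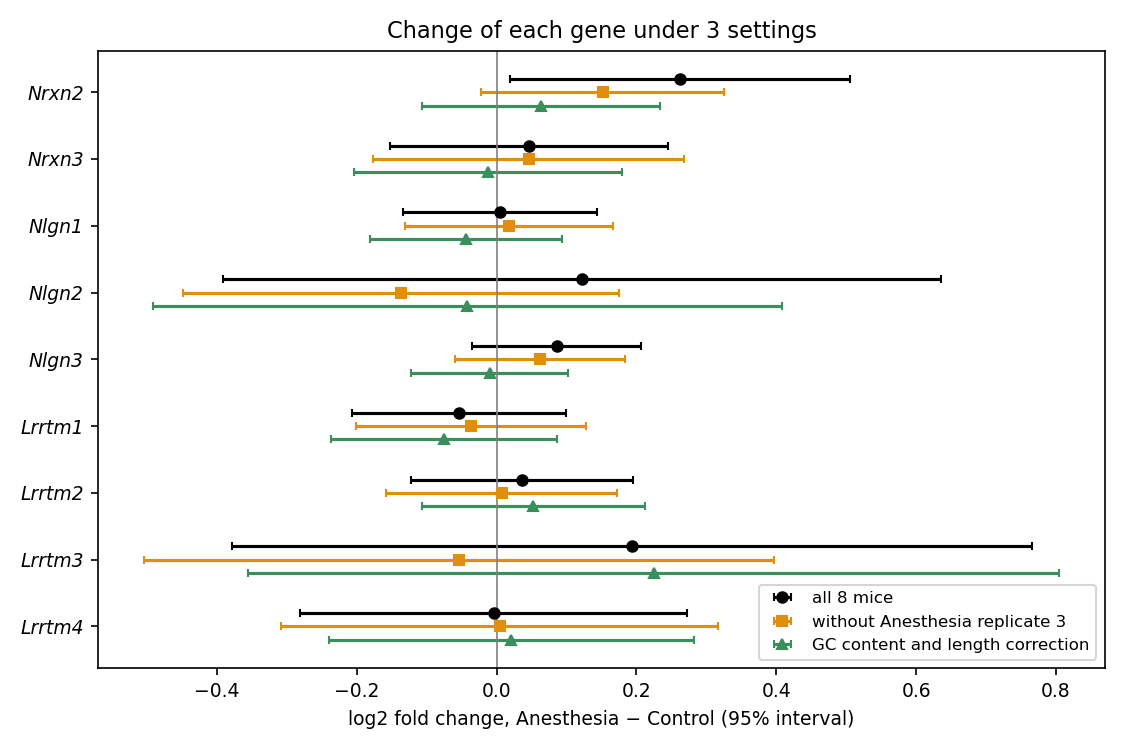
Log2 fold change of the Anesthesia against the Control group (x axis) for each of the 9 genes with its 95% interval, from limma on all 8 mice (black circles), without Anesthesia mouse 3 (orange squares) and after correction for GC content and length (green triangles). With all mice the interval of Nrxn2 alone lies above 0, from 0.02 to 0.50, and it includes 0 under both other settings.

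Genes that work with these families were examined as 6 lists of 74 genes in all, of which 73 were tested. None had a limma adjusted p under 0.05, and the smallest was 0.568. At an unadjusted p under 0.05, limma called 9 genes higher in the Anesthesia group and 1 lower, against 4.75% and 3.27% of all genes. The log2 fold change was above 0 for 56 of the 73 and below 0 for 17, with a median of 0.082. After the GC content and length correction 47 were higher, with a median of 0.049. With the nuclear-retained RNA covariate the direction turned, with 31 of 73 higher, a median of -0.050, and 3 genes higher and 8 lower at an unadjusted p under 0.05. The highest value was in Anesthesia mouse 3 for 35 of the 73 genes. Without this mouse 50 genes were higher, the median was 0.033, and 4 genes were higher and 1 lower at an unadjusted p under 0.05.

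Of 16 neurexin partners tested, 13 were higher and 3 lower in the Anesthesia group, none past the adjusted threshold, and 4 were higher at an unadjusted p under 0.05 in limma, where 4.75% of all genes were. Adgrl1, which encodes the adhesion receptor latrophilin-1, had 6689.6, 7607, 9503 and 7365 normalized counts in the Anesthesia mice and 5606, 6775, 5425.5 and 6066 in the Control mice. Its log2 fold change was 0.38 (SE 0.11, limma adjusted p = 0.568), 0.28 without Anesthesia mouse 3 and 0.19 after the GC content and length correction. Grid1, the glutamate receptor family member bridged to neurexins by cerebellins, had 1211, 1204, 1426 and 1230.5 normalized counts against 1112, 1169, 1007 and 1151. The groups did not overlap for Grid1, as for 2.81% of all genes in this direction, and its log2 fold change was 0.19 (SE 0.08, limma adjusted p = 0.620). It was 0.13 without Anesthesia mouse 3 and 0.15 after the GC content and length correction. Nxph1, a secreted neurexin ligand, had means of 613 ± 33.9 and 635 ± 43.1 (SD, n = 4), and Gpc4, a glypican that binds LRRTM4, had 202 ± 28.6 and 215 ± 21.7.

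The cerebellins, secreted bridges between neurexins and GluD receptors, had the mouse pattern of Nlgn2 and Lrrtm3, as was seen after their values were known. Cbln1 had 251 normalized counts in Anesthesia mouse 3, 17.5 in Anesthesia mouse 2 and 41.0 to 144 in the other 6 mice. Cbln4 had 324, 66.5 and 98.1 to 244 in the same order, and Cbln2 had 505, 140.3 and 175 to 394. Each was thus highest in Anesthesia mouse 3 and lowest in Anesthesia mouse 2, and their limma adjusted p-values were 0.941, 0.900 and 0.976.

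The 3 neuroligin partners were all higher on average in the Anesthesia group, none of them past the threshold. Mdga1, whose product blocks the binding of neuroligin-2 to neurexin, had means of 718 ± 272.5 and 503 ± 73.3 normalized counts (SD, n = 4), with 1082 in Anesthesia mouse 2. Its log2 fold change was 0.44 (SE 0.23, limma adjusted p = 0.654), and 0.26 after the GC content and length correction. Mdga2 had a log2 fold change of 0.098 (limma adjusted p = 0.777), and Lhfpl4, which links neuroligin-2 to GABA-A receptors, of 0.16 (limma adjusted p = 0.694). Without Anesthesia mouse 3 these were 0.030 and 0.060, and after the GC content and length correction 0.039 and 0.068.

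Of 14 scaffolds bound by neurexins or neuroligins, 10 were higher and 4 lower, with a median log2 fold change of 0.046. Gphn, encoding gephyrin of the GABAergic postsynapse, was the 1 gene of the 14 with an unadjusted p under 0.05, where 3.27% of all genes were lower at that p. It had 1570.2, 1655, 1462 and 1739 normalized counts in the Anesthesia mice and 2009, 1644, 1696 and 2109 in the Control mice, and Anesthesia mice 1 and 3 were below the lowest Control mouse. Its log2 fold change was -0.21 (SE 0.09, limma adjusted p = 0.622). It was -0.19 after the GC content and length correction, -0.17 without Anesthesia mouse 3 or Control mouse 1, and -0.22 with the choroid plexus covariate. In each of these fits the unadjusted p of Gphn in limma was above 0.05, from 0.061 to 0.119. Dlg4, the main scaffold of the glutamatergic postsynapse, had means of 3537 ± 376 and 3131 ± 312 (SD, n = 4, limma adjusted p = 0.652). Dlg3 of the same family had 3350.2 ± 255 and 3606 ± 198 (limma adjusted p = 0.689), and the presynaptic adaptor Apba2 had 4022 ± 165 and 3772 ± 134 (limma adjusted p = 0.671).

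Other trans-synaptic organizers, which act beside neurexin complexes, were higher for 27 and lower for 7 of 34 genes, with a median log2 fold change of 0.086. At an unadjusted p under 0.05 limma called 5, all higher, where it called 4.75% of all genes higher and 3.27% lower. Ntng2, encoding netrin-G2, had 165, 177, 189 and 153 normalized counts in the Anesthesia mice and 139, 136, 112 and 137 in the Control mice, without overlap, as for 2.81% of all genes in this direction. Its log2 fold change was 0.39 (SE 0.12, limma adjusted p = 0.616). Ptprf, a receptor phosphatase of the LAR family, had means of 1552 ± 376 and 1126 ± 136 (SD, n = 4), with a log2 fold change of 0.44 (SE 0.16, limma adjusted p = 0.620), 0.28 after the GC content and length correction. In the opposite direction, Flrt3 had a log2 fold change of -0.16 (limma adjusted p = 0.652) and Slitrk5 of -0.08 (limma adjusted p = 0.730).

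Regulators of neurexin splicing and of shedding gave no called gene. The RNA-binding proteins Khdrbs1, Khdrbs2 and Khdrbs3 had log2 fold changes of -0.0048, 0.19 and 0.0091 (limma adjusted p = 0.988, 0.660 and 0.974). The protease Adam10, which sheds the extracellular part of adhesion molecules, had a log2 fold change of -0.06 (limma adjusted p = 0.787). Mmp9, which cleaves neuroligin-1, had few counts, with means of 12.8 ± 6.37 and 35.8 ± 36.7 (SD, n = 4, limma adjusted p = 0.748). The alpha-catenin genes around the LRRTM genes did not differ past the threshold either. Ctnna1 had means of 1259 ± 175 and 1289 ± 176, Ctnna2 of 2937 ± 206 and 2801 ± 66.1, and Ctnna3 of 118 ± 31.1 and 118 ± 30.3 (SD, n = 4), with limma adjusted p-values of 0.946, 0.775 and 0.999.

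**Figure D4:**
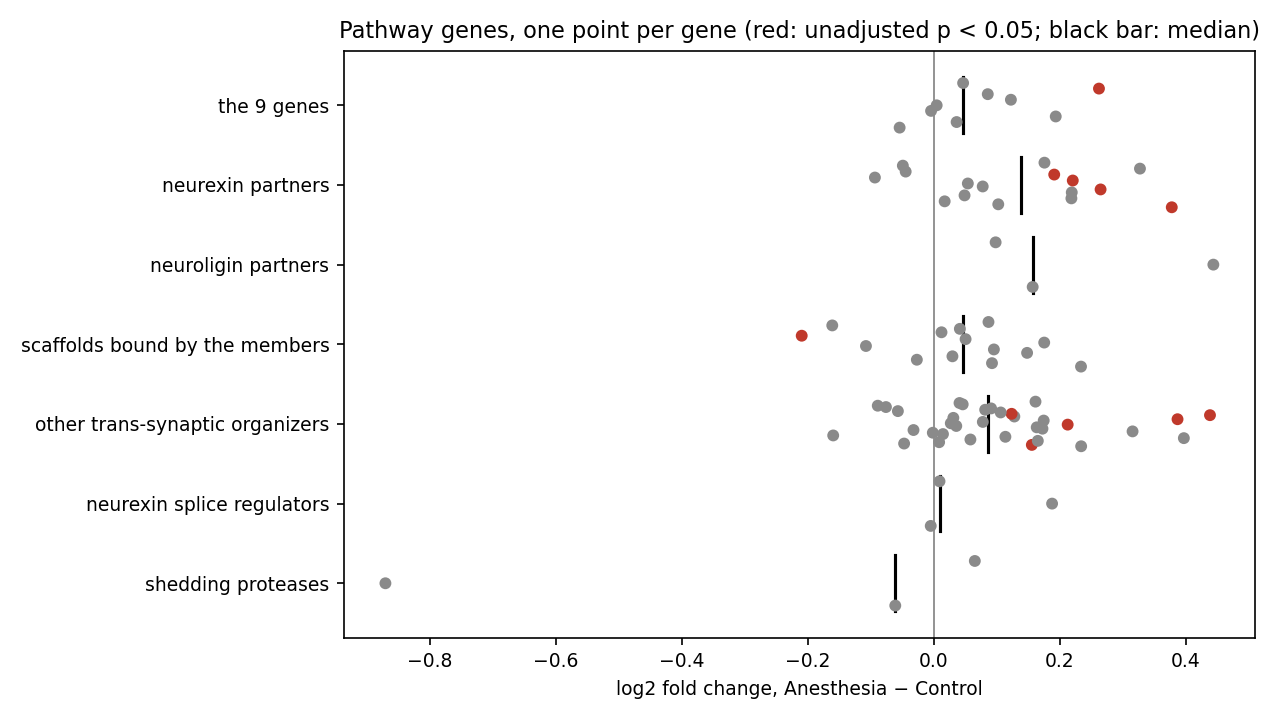
Log2 fold change of the Anesthesia against the Control group (x axis) for the 9 genes and the tested genes of 6 lists (y axis), with a point per gene, the median of each list as a black bar, and genes with an unadjusted p under 0.05 in red. Of 73 list genes, 56 lie above 0, and none has an adjusted p under 0.05.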

How the data were processed

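Hippocampal libraries of 4 Anesthesia and 4 Control mice were compared, grouped by their titles. The authors quantified reads with Salmon 1.1.0 against GRCm38, summarised them per gene with tximport and normalized them with DESeq2 1.30.1. The deposited signal is therefore a normalized count, and relative to read counts it carries library scaling and the GC bias correction of Salmon. Only 50.5% to 73.1% of the low values per library came within 0.1 of whole reads, which did not allow read counts to be recovered, and count tests were not run. The library kit is named differently in the labels and in the methods of the study, and strand-specific counting is not given in the sources used here.

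Values with a pseudocount of 1 were taken to log2 and fitted in limma 3.58.1 (R 4.3.3) using its mean-variance trend. The fit covered the 18865 genes averaging 10 or more, and the Benjamini-Hochberg adjustment ran over all of these. No covariate was used. Fold changes on this scale understate those of low genes. Symbols, positions, lengths and GC content came from GENCODE M21, which held 20784 of 20802 identifiers. Promoters came from RefSeq.

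The 9 genes and all gene lists were chosen with earlier results of these data known. Named are the 9 genes, all genes of lists under 10, in longer lists the 2 with the smallest p in each direction, the genes around the LRRTM genes, and the 3 genes nearest to the member with the smallest p. Cerebellins, Prox1, Dsp and C1ql2 were added after their values were seen. A gene that meets this rule is not reported here.

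Besides each of the 8 mice left out, alternatives were a pseudocount of 0.1, no filter or a mean of at least 100, upper quartile scaling, scaling to the column total, limma voom, a replicate block, a loess correction (span 0.3) of each library for GC content and length with and without that block, a choroid plexus covariate, an adjusted p under 0.10 and, added after the data were seen, a nuclear-retained RNA covariate. The fit was tested on simulated data.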

Additional observations from a re-analysis of the deposited data

Results flagged for a closer look

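Of 78 groups of 4 mice examined, 5 held a mouse far from its group mates, where chance alone gives about 1 in 20, or 3.9. Nlgn1 in Control mouse 1 was 4536 normalized counts, where the rest of its group had 3895 to 3976. Grid1 in Anesthesia mouse 3 was 1426, against 1204 to 1230.5 in its group. Ntng2 in Control mouse 3 was 112, against 136 to 139. Khdrbs1 in Anesthesia mouse 2 was 1429, against 1489.9 to 1494. Adap1, one of the genes nearest to Nrxn2, was 3047 in Anesthesia mouse 3, against 2288 to 2375.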

How the results depend on the processing

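No neurexin, neuroligin or LRRTM gene had an adjusted p under 0.05 in limma under any alternative. Of these 9 genes, 1 had an unadjusted p under 0.05, and 0 had with voom, the replicate block, the GC content and length correction with or without that block, and the choroid plexus covariate. With each mouse left out the count was 0 to 1, with 0 without Anesthesia mouse 3 or 4 or Control mouse 1, 2 or 3. With the nuclear-retained RNA covariate the 1 gene was Nlgn2, lower in the Anesthesia group, in place of Nrxn2. Over all genes 0 passed the adjusted threshold, 0 to 2 with each mouse left out, and 2 without Control mouse 1. Those at an unadjusted p under 0.05 numbered 1513, but 863 with the GC content and length correction and the block together, and 819 with the choroid plexus covariate. Of these, 59.3% were higher in the Anesthesia group, but 50.7% after the GC content and length correction and 47.3% with the nuclear-retained RNA covariate. For the list genes, the number at an unadjusted p under 0.05 in limma was 10. It was 6 with voom, 6 with the replicate block and 3 with the GC content and length correction. With that correction and the block together it was 5, and with the choroid plexus covariate 4. With the nuclear-retained RNA covariate it was 11, of which 3 were higher and 8 lower, against 9 higher and 1 lower without it. With each mouse left out it was 4 to 18, with 18 without Anesthesia mouse 2, 5 without Anesthesia mouse 3, 6 without Anesthesia mouse 4 or Control mouse 1, 4 without Control mouse 3 and 5 without Control mouse 4. The cause of these shifts was not tested.

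Log2 fold changes of 8 of the 9 genes turned sign under some setting. After the GC content and length correction, with and without the block, those of Nrxn3 (-0.0127), Nlgn1 (-0.0436), Nlgn2 (-0.0418), Nlgn3 (-0.0099) and Lrrtm4 (0.0212) did. With the nuclear-retained RNA covariate, added after the data were seen, those of Nrxn2 (-0.0585), Nlgn2 (-0.5733), Lrrtm2 (-0.1004), Lrrtm3 (-0.5781) and Lrrtm4 (0.176) did. Nlgn1 was -0.0032 with scaling to the column total, -0.0031 with voom and -0.0331 with the choroid plexus covariate, and Lrrtm4 was 0.0062 with upper quartile scaling. With each mouse left out, the range was -0.0202 to 0.10 for Nrxn3, -0.0212 to 0.0559 for Nlgn1, -0.1363 to 0.2802 for Nlgn2, -0.0538 to 0.4136 for Lrrtm3 and -0.0964 to 0.0917 for Lrrtm4. Of the mice left out, Anesthesia mouse 3 alone turned Nlgn2 and Lrrtm3.

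Same-numbered mice did not deviate together (correlations across genes of -0.242, -0.109, -0.182 and 0.019). These values gave no sign of a pairing by number, although they cannot exclude one. With 4 mice per group, the 95% intervals of the log2 fold change ran from -0.39 to 0.64 for Nlgn2 and from -0.38 to 0.77 for Lrrtm3. Differences within these intervals were not excluded.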
